A study of Mus musculus with 12 samples.

Results

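CpG methylation was compared between the 2 strands of the DNA at CpGs that were read on both. A CpG was taken when it lay on an autosome, when its cytosine on the reference strand (called F) and its cytosine 1 base further on the complementary strand (called R) were both listed, and when each strand had a coverage of at least 20 reads in all 12 libraries. That was true of 74315 CpGs, out of 2102125 autosomal CpGs listed on either strand in any library, 451465 with both strands listed somewhere and 105893 with both strands listed in all 12 libraries. Coverage alone chose them, and no methylation value was used. CpGs just inside this limit, with a lowest coverage of 20 to 24 reads (n = 11986), had mean absolute strand differences of 3.37 to 6.74 percentage points per library, and CpGs just outside it, with a lowest coverage of 15 to 19 reads (n = 13904), had 4.20 to 7.85 points.

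A CpG reads the same on both strands, so each site carries a pair of cytosines that can both be methylated. Copying the DNA gives each daughter duplex an old strand and a new strand without methyl groups, and a CpG is then hemimethylated until the maintenance enzyme DNMT1, brought there by UHRF1, which binds hemimethylated CpGs, copies the mark to the new strand. TET2 oxidises 5-methylcytosine, and bisulfite sequencing does not separate 5-methylcytosine from 5-hydroxymethylcytosine. After bisulfite conversion the strands no longer pair and are read as separate molecules. A difference between F and R is therefore an average over many cells: a CpG methylated on F in some cells and on R in as many others shows none, whereas hemimethylation that favours the same strand in most cells does show. Strands sampled from few molecules, and steps of library preparation that act on one strand, give differences as well.

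The cells were LSK cells, sorted as lineage-negative, Sca1-positive and cKit-positive from the bone marrow of C57BL/6 mice aged 6 months, a fraction that holds the blood stem cells and early progenitors. The 4 groups of 3 libraries were Tet2(-/-) Nras(G12D) double mutants labelled leukemic by the series design and a prefix in their titles, nonleukemic Tet2(-/-) Nras(G12D) double mutants, Tet2(-/-) single mutants (Tet2 knockout) and Nras(G12D) single mutants. The alleles are conditional and specific to the blood system per the series design, the Cre driver is not given in the sources used here, and the short codes of the leukemic libraries contain the letters BMT, which are not explained. Every group therefore carried at least 1 of the 2 mutations, and wild-type cells were not analysed here. The labels do not say whether the 3 libraries of a group came from separate animals, so a p-value here speaks of the spread among these libraries, which may be technical. The identity of the LSK cells was not checked, because no annotation of the genome build of the tables was used.

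Methylation was read by reduced representation bisulfite sequencing: MspI, which cuts at CCGG whether or not its inner CpG is methylated, released fragments that were read for 50 bases from a single end. The tables summed to 96300485 to 199736369 reads over listed cytosines per library. The CpGs read on both strands had a median coverage of 79 to 158 reads per strand and library, with medians of F and R within 1 read of each other in every library. No molecular identifiers are named, so copies made by PCR count as reads and intervals cover counting error only.

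Most of these CpGs were nearly unmethylated on both strands. The mean level over both strands and all 12 libraries was under 20% at 59531 CpGs (80.1%), 20 to 80% at 3636 (4.89%) and over 80% at 11148 (15.0%). The CpGs under 20% lay in dense stretches, with a median of 10 other listed CpGs within 50 bases, against 3 in each of the other classes. The classes were set on the mean of F and R, so a CpG methylated fully on one strand only falls in the middle class.

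Strands differed most in the libraries labelled leukemic at the CpGs that are highly methylated. Over the 11148 CpGs over 80%, the mean absolute difference between F and R was 12.3, 10.5 and 13.4 percentage points in the leukemic double mutants, 5.90, 6.03 and 5.25 in the nonleukemic double mutants, 4.87, 7.41 and 7.47 in the Tet2 knockouts and 6.59, 6.03 and 8.29 in Nras G12D. By this mean, all 3 leukemic libraries lay above all 9 others. The median absolute difference was 4.05, 8.31 and 7.84 points in the leukemic libraries, 4.01, 4.45 and 3.87 points in the nonleukemic double mutants and 0 to 4.88 points in the 6 others, so the medians overlapped, and 2008 of the 11148 CpGs differed by at least 25 points in leukemic replicate 1. The group means were 12.1 ± 1.46 points in the leukemic double mutants, 5.73 ± 0.420 in the nonleukemic double mutants, 6.58 ± 1.48 in the Tet2 knockouts and 6.97 ± 1.18 in Nras G12D (SD, n = 3 each). The leukemic mean was 6.35, 5.50 and 5.11 points above the nonleukemic, Tet2 knockout and Nras G12D means. In a two-sided exact permutation test each of these gave p = 0.1, the smallest that 3 libraries against 3 allow, and an adjusted p of 0.36 over the 18 comparisons of class and pair, so none passed a threshold of 0.05.

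At intermediate and low levels the leukemic libraries stood apart from the nonleukemic double mutants only. At CpGs of 20 to 80% the mean absolute difference was 29.8, 17.8 and 26.1 points in the leukemic double mutants, 16.5, 15.7 and 14.1 in the nonleukemic double mutants, 14.4, 31.1 and 23.2 in the Tet2 knockouts and 16.7, 15.3 and 24.1 in Nras G12D. The highest value belonged to a Tet2 knockout library, and the leukemic values overlapped those of both single mutants. At CpGs under 20% the mean absolute difference was 2.03, 1.46 and 1.56 points in the leukemic double mutants, 1.34, 1.21 and 1.10 in the nonleukemic double mutants, 1.02, 2.34 and 1.79 in the Tet2 knockouts and 1.01, 0.996 and 1.82 in Nras G12D. The leukemic mean exceeded the nonleukemic mean by 9.18 points at 20 to 80% and by 0.467 points under 20%, without overlap and with an adjusted p of 0.36 in the exact permutation test each. The other 13 of the 18 comparisons overlapped between groups.

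**Figure D1:**
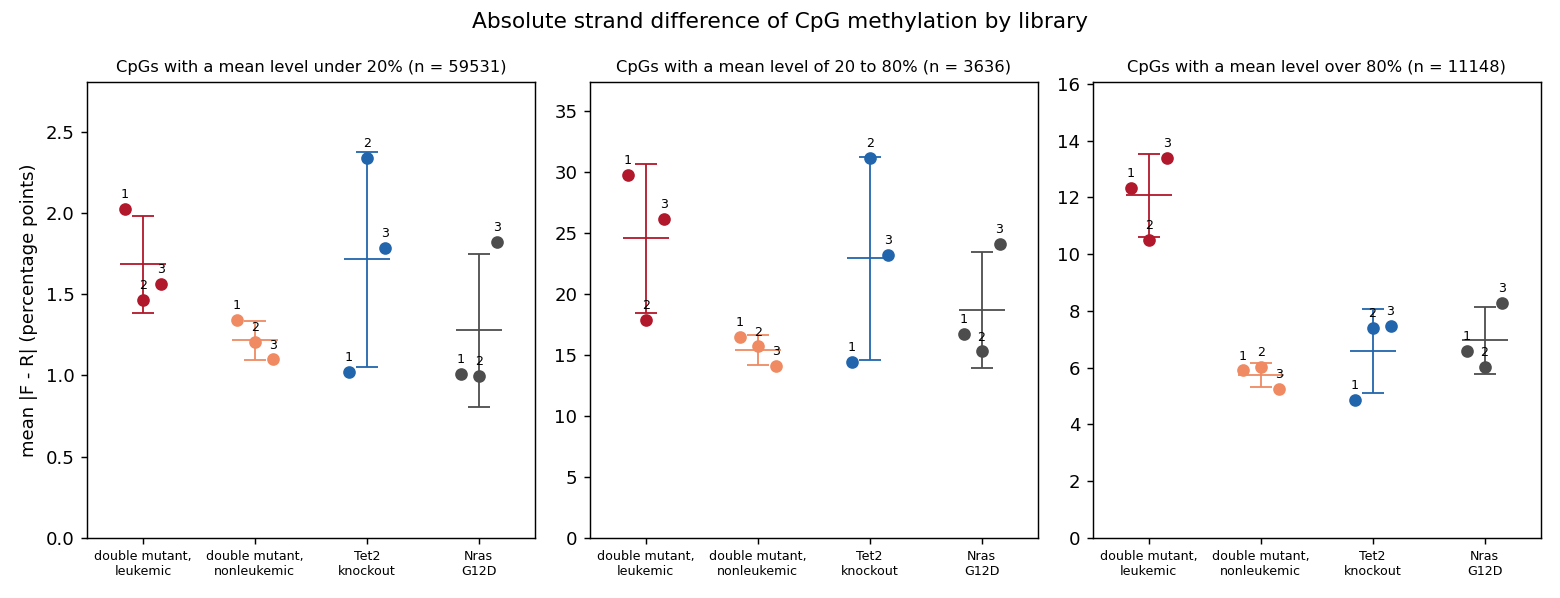
Mean absolute difference between the strands, in percentage points, for each library (points, labelled with the replicate number) in 3 classes of mean level, with the group mean and SD (bars, n = 3). Over 80%, the 3 leukemic libraries sit at 10.5 to 13.4 points and the 9 others at 4.87 to 8.29, while in the other panels the groups overlap apart from the leukemic and nonleukemic double mutants.

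The absolute difference depends on the level and on the number of reads, and the leukemic libraries also had lower levels at these CpGs. Over 80%, the mean level was 91.3, 87.5 and 89.7% in the leukemic libraries and 93.7 to 95.6% in the 9 others, and counting error grows as a level moves towards the middle of its range. Therefore 2 further measures were taken. The first removes the binomial counting error of the counted reads only. Spread from PCR copies stays in it and can still grow towards middle levels, so it does not fully allow for the level. The SD of F minus R beyond the binomial counting error was 18.9 ± 4.78 points in the leukemic double mutants, 7.48 ± 0.910 in the nonleukemic double mutants, 12.02 ± 5.34 in the Tet2 knockouts and 10.1 ± 3.49 in Nras G12D (SD, n = 3 each). By this measure the leukemic libraries overlapped the Tet2 knockouts and Nras G12D (exact permutation p = 0.2 each) and lay above the nonleukemic double mutants (p = 0.1).

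The second measure gives the strand difference as equivalent reads: the number of independent reads per strand whose binomial error at the same levels would give the observed mean squared difference. Few equivalent reads mean strands that differ more than their depth accounts for. Over 80% this was 3.12, 10.1 and 3.72 in the leukemic libraries, 12.6, 13.3 and 17.7 in the nonleukemic double mutants, 18.6, 2.90 and 5.18 in the Tet2 knockouts and 12.9, 15.0 and 4.90 in Nras G12D. Low and high libraries were found side by side in the leukemic, Tet2 knockout and Nras G12D groups, and the nonleukemic double mutants had no low one. At CpGs under 20%, 5 libraries had fewer than 7 equivalent reads per strand, between 2.45 and 6.48, namely leukemic replicates 1 and 3, Tet2 knockout replicates 2 and 3 and Nras G12D replicate 3, and the other 7 had 14.1 to 23.4.

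The same 5 libraries had the fewest equivalent reads in every class. Among the other 7, the leukemic library, replicate 2, had 10.1 equivalent reads over 80%, against 12.6 to 18.6 in the 6 others. Its mean absolute difference there was 10.5 points, against a mean of 5.73 in the 3 nonleukemic double mutants, 4.87 in the remaining Tet2 knockout and 6.31 in the 2 remaining Nras G12D libraries. Equivalent reads did not overlap between the leukemic and nonleukemic double mutants in any class (means of 5.66 and 14.5 over 80%, exact permutation p = 0.1, adjusted p 0.6), and overlapped in the other 15 comparisons. Whether molecule numbers, PCR copies or cell numbers differed between the libraries was not tested.

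**Figure D2:**
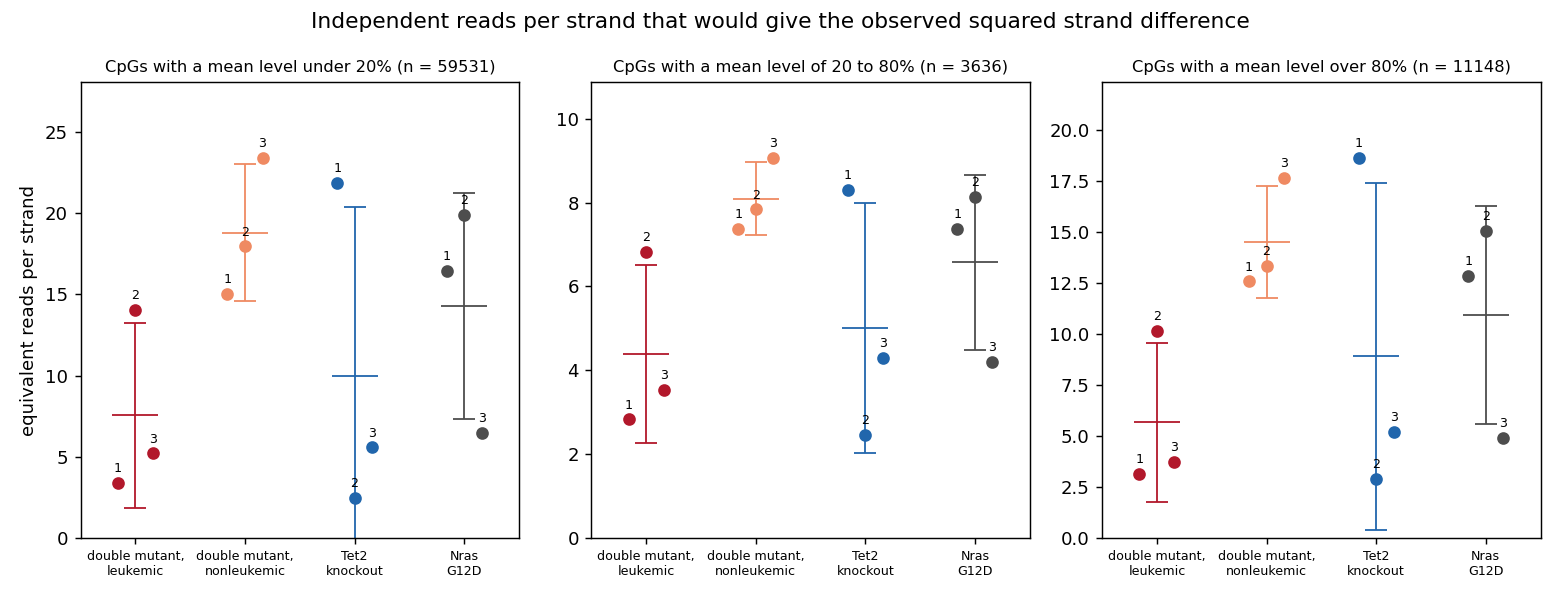
Equivalent reads per strand for each library (points, labelled with the replicate number) in 3 classes of mean level, with the group mean and SD (bars, n = 3; the bar of the Tet2 knockouts under 20% ends at the axis). In every panel leukemic replicates 1 and 3, Tet2 knockout replicates 2 and 3 and Nras G12D replicate 3 lie below the other 7 libraries, 3 of which are the nonleukemic double mutants.

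Neither strand was the more methylated one overall. The mean signed difference F minus R lay between -0.546 and 0.113 points per library over 80%, between -0.501 and 0.689 points at 20 to 80%, and between -0.0926 and 0.0361 points under 20%. Over 80%, R was higher in 8 of 12 libraries, and in each of the other classes in 4 of 12. Over 80% the group means of F minus R were -0.193 ± 0.332 points in the leukemic double mutants, 0.00386 ± 0.0346 in the nonleukemic double mutants, -0.146 ± 0.0264 in the Tet2 knockouts and -0.000569 ± 0.109 in Nras G12D (SD, n = 3 each). F and R are the strands of the reference sequence and have no fixed relation to old and new strands.

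Taken over each class as a whole, the strand difference of a CpG recurred from library to library at intermediate levels and hardly at all elsewhere. The class is set on the mean of the strands, so CpGs methylated fully on one strand only fall at 20 to 80%. All 131 CpGs with a mean difference of at least 50 points lay there, and they weigh on the values of that class. Across the 3636 CpGs of 20 to 80%, F minus R correlated between libraries with a median Pearson r of 0.377 over the 66 pairs of libraries (0.188 to 0.616), and with a median of 0.542 over the 21 pairs of the 7 libraries with more equivalent reads. Across CpGs under 20% the median was 0.0288, and over 80% it was 0.0256. These correlations run over CpGs, which share reads and are not independent replicates. The part of the difference that 2 libraries shared, the square root of the mean product of their values of F minus R, came to 17.1 points at 20 to 80%, 0.757 under 20% and 1.95 over 80%. At 20 to 80% this shared part was 16.9 points within the leukemic double mutants, 17.0 within the nonleukemic double mutants, 17.5 within the Tet2 knockouts and 17.4 within Nras G12D, and 17.1 between libraries of different groups. It was not spread evenly over the class, as the values by layout of the reads below show.

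Large strand differences were counted next. By library, 126 to 1888 CpGs differed by at least 50 points between the strands. The numbers were 1684, 235 and 1168 in the leukemic double mutants, 165, 159 and 126 in the nonleukemic double mutants, 160, 1888 and 649 in the Tet2 knockouts and 166, 150 and 610 in Nras G12D. The 5 highest numbers, from 610 upwards, belonged to the 5 libraries with few equivalent reads, where 45.6 to 71.8% of such CpGs passed 50 points in that library alone, against 0.794 to 24.3% in the other 7. Over all libraries, 4900 CpGs passed 50 points at least once, 4027 of them in 1 library, 771 in 2 to 9 and 71 in all 12. F was the higher strand about as often as R, at 834 and 850 CpGs in leukemic replicate 1 and at 889 and 999 in Tet2 knockout replicate 2.

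**Figure D3:**
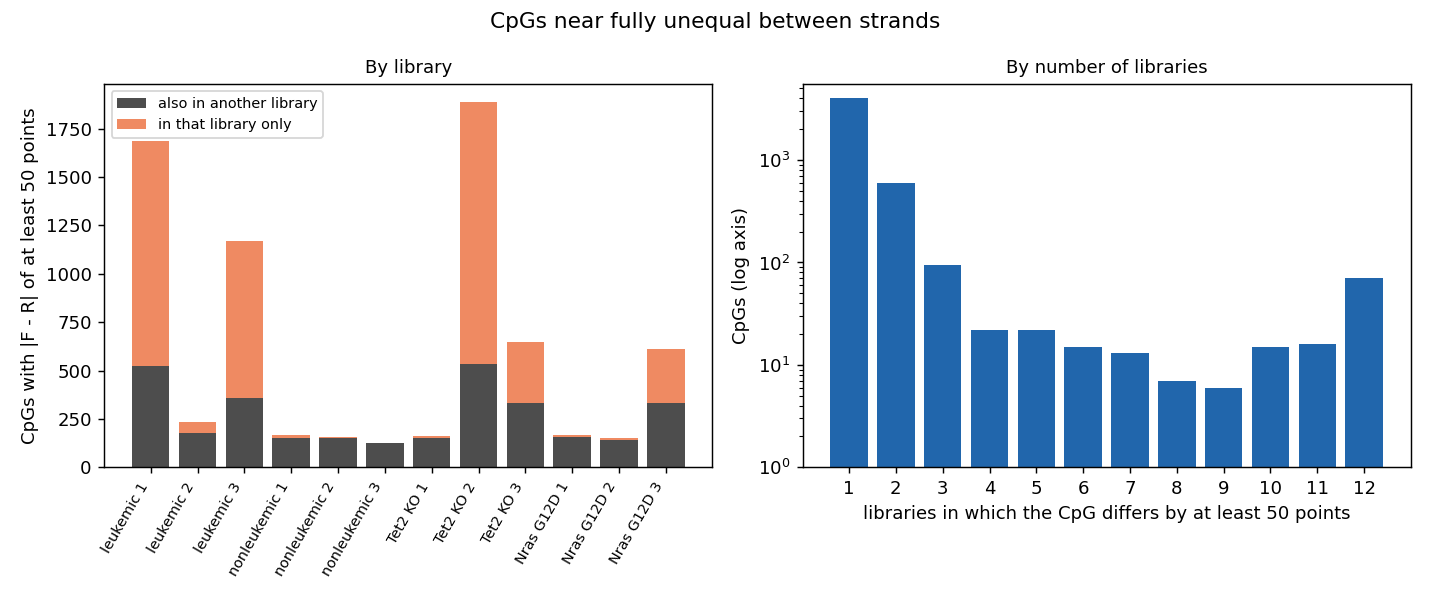
CpGs with an absolute strand difference of at least 50 points, by library (left, split into those that pass in that library only and those that pass in another as well) and by the number of libraries in which they pass (right, log axis). The left bars run from 126 to 1888 CpGs, and the right bars show 4027 CpGs in 1 library and 71 CpGs in all 12, more than in any number of libraries from 4 to 11.

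A strand difference present over all libraries was then tested CpG by CpG. For each library the log odds ratio of methylated reads on F against R was taken, weighted by its counting variance, and the mean of the 4 groups was tested with a dispersion moderated across CpGs. The model needs methylated and unmethylated reads in at least 2 libraries of each group, which 13196 of the 74315 CpGs had. Of these, 314 (2.38%) were called, which took an adjusted p below 0.05 together with a mean difference of at least 10 points, 167 (1.27%) with F higher and 147 (1.11%) with R higher. Another 8 had an adjusted p under 0.05 and a mean difference of 8 to 10 points, and 4 called CpGs lay between 10 and 12 points. The middle class held 246 of the 314 calls among its 3636 CpGs, the class under 20% held 30 among 59531 and the class over 80% held 38 among 11148. A CpG methylated fully on one strand only falls in the middle class, and the model needs both kinds of reads. The split therefore follows in part from these rules, and the numbers tested in each class are not given here. The sign was the same in all 12 libraries at 186 of the 314, against 203 of all 74315 CpGs (0.273%), which include the called ones. The calls were made in the same 12 libraries, so this agreement follows in part from the choice. limma on F minus R in points, which used every CpG, called 188, of which 186 were among the 314.

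The called CpGs had a median absolute mean difference of 43.7 points, with median levels of 22.9% on the lower strand and 93.4% on the higher one. The mean difference reached 25 points at 246 of them, 50 points at 131 and 90 points at 67. At the 131 CpGs past 50 points the lower strand had a median level of 3.60% and the higher one 95.7%, with F higher at 64 and R higher at 67. They lay on 18 of the 19 autosomes, with at most 14.5% of them on 1 chromosome.

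**Figure D4:**
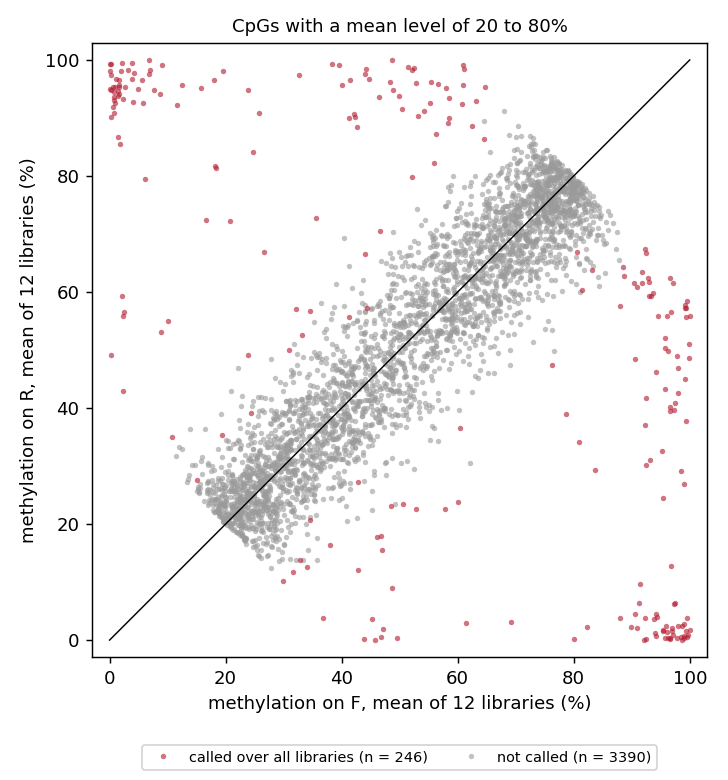
Mean methylation on F (x axis) and R (y axis) over 12 libraries, in percent, for the 3636 CpGs with a mean level of 20 to 80%; red points are the 246 called for a strand difference over all libraries, grey points the other 3390. The grey points follow the diagonal, and many red points gather in the 2 corners where one strand is near 100% and the other near 0.

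The CpGs with the largest differences showed one strand methylated in nearly every read and the other in almost none, in every group. At chr4:137128676-137128677 (mm9, the base on F and the base on R) the level on F was 100% in 11 libraries and 94.4% in leukemic replicate 2, and the level on R was 0 to 2.94% (20 to 144 reads on F, 26 to 86 on R). F minus R there was 98.1 ± 3.24 points in the leukemic double mutants, 99.0 ± 1.70 in the nonleukemic double mutants, 98.9 ± 1.04 in the Tet2 knockouts (SD, n = 3 each) and a full 100 in each Nras G12D library, with an adjusted p of 3.78e-09 in the weighted model. The next with F higher were chr11:116458126-116458127 with a mean F minus R of 98.8 points, chr8:80127965-80127966 with 98.7 and chr3:8451675-8451676 with 98.6.

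The mirror image was as complete. At chr4:23579598-23579599 the level on F was 0 in all 12 libraries (21 to 136 reads) and the level on R 96.2 to 100% (22 to 205 reads), a mean F minus R of -99.2 points (adjusted p 8.89e-09 in the weighted model). R was likewise higher at chr4:62330755-62330756 by a mean F minus R of -98.9 points, at chr3:8451724-8451725 by -98.0 and at chr8:124525773-124525774 by -97.5. At the last of these, nonleukemic replicate 3 alone had more than 10% on F, with 19.4% of 31 reads. That group's mean F minus R of -93.5 points there was the farthest from a full difference among the group means of these 8 CpGs.

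The CpGs past 50 points were then placed in the layout of the reads. In libraries cut with MspI a single-end read starts at one or the other end of a fragment and runs inwards. Cytosines covered by the same reads have nearly equal coverage, so a cytosine was called matched to a side when another listed cytosine of its strand within 49 bases on that side had a median coverage within 10% of its own. At the 131 CpGs past 50 points, the low strand was matched on its 5′ side in 60.3% and on its 3′ side in 2.29%, whereas the high strand was matched on its 3′ side in 76.3% and on its 5′ side in 4.58%. Over all 74315 CpGs these shares lay between 66.7 and 67.6% for either strand and side. A match needs a listed neighbour, and those CpGs had a median of 9 others within 50 bases, against 2 at the 131. The closer comparison is with the 3390 CpGs of 20 to 80% that were not called for a strand difference over all libraries, with a median of 3. Their shares lay between 46.99 and 48.38%. Thus at the 131 CpGs the cytosines that shared coverage with the low one mostly lay before it in the direction of reading, and those that shared coverage with the high one mostly lay after it.

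They also came in pairs at a fixed spacing. Of the 131 CpGs, 97 had another CpG read on both strands 20 to 80 bases away, and at 79 of these the one with the largest strand difference in that window differed by at least 25 points with the opposite sign. At all 79 the CpG at the lower coordinate had F higher and the one at the higher coordinate had R higher, and the distance was 47 to 50 bases, about the length of a read. The 79 are CpGs and not pairs, so a pair with both members among the 131 can count from each end. The share at CpGs outside the 131 was not counted. The CpGs on chromosome 3 named above form such a pair, with F higher at 8451675 and R higher at 8451724, 49 bases apart. At 2 of the 97 the neighbour with the largest strand difference differed by at least 25 points with the same sign, and at 16 by less than 25 points.

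In preparing such libraries the ends left by MspI are filled in with new nucleotides during end repair, a step named in the labels' protocol, so the last CpG of a fragment read to its end is copied DNA on one strand; whether such bases were trimmed is not given in the sources used here. Whether filled-in ends took part in the strand differences was not tested. The CpGs matched on the same side only, on both strands, numbered 1028 and had a median absolute mean difference of 0.339 points under 20% (n = 787), 80.3 points at 20 to 80% (n = 120) and 2.59 points over 80% (n = 121). These values depend on the class, which is set on the mean of the strands. A CpG methylated fully on one strand only can fall at 20 to 80% alone. Of the 120 CpGs with this layout in that class, 67 had a mean difference of at least 50 points.

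The part of the strand difference shared between libraries also depended on that layout. Where the layout of coverage placed a CpG at the junction of neighbouring fragments (14236 CpGs) or in the interior of reads from both sides (46890 CpGs), the part shared between libraries at 20 to 80% was 3.07 points (n = 630) and 4.85 points (n = 1543), against 26.5 points at the remaining CpGs (n = 1463). The called CpGs of that class divided the same way, with 2 of 630 at junctions, 24 of 1543 in interiors and 220 of 1463 among the rest. Over all classes, 4 of 14236, 36 of 46890 and 274 of 13189 CpGs were called. The numbers tested in each layout are not given here. At junction CpGs of 20 to 80%, F minus R correlated between libraries with a median r of 0.0213, at interior CpGs with 0.0515 and at the rest with 0.588. The mean absolute difference within a library at 20 to 80% remained 10.4 to 25.8 points at junctions and 9.63 to 32.2 points in interiors, well above the part shared between libraries in the same places.

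At intermediate levels, neighbouring CpGs in the same library differed together over short distances. Between CpGs of 20 to 80% that lay 2 to 10 bases apart (272 pairs), F minus R correlated with a median r of 0.522 over libraries (0.422 to 0.666), but with only 0.0795 when the 2 CpGs were taken from different libraries of the same group. At 11 to 25 bases (143 pairs) the medians were 0.358 in the same library and 0.107 in different ones. At 26 to 50 bases (233 pairs) both were negative, at -0.376 in the same library and -0.382 in different ones, the distance at which the pairs of opposite sign lie. Over 80%, the median r in the same library was 0.103 at 2 to 10 bases (911 pairs, 0.00762 to 0.236) and 0.0653 at 11 to 25 bases (601 pairs). Such neighbours are read in the same molecules, so these values describe shared reads as well as shared methylation.

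Whether the strand difference itself differed between groups was tested at the same 13196 CpGs in the same model. It was called at 2 CpGs (0.0152%) between the leukemic and nonleukemic double mutants, at the same 2 (0.0152%) between the leukemic double mutants and Tet2 knockouts, and at none between the leukemic double mutants and Nras G12D, the nonleukemic double mutants and Tet2 knockouts, the nonleukemic double mutants and Nras G12D, and the Tet2 knockouts and Nras G12D. In these 4 pairs of groups 1223 (9.27%), 611 (4.63%), 249 (1.89%) and 836 (6.34%) of the tested CpGs had an unadjusted p under 0.05 in the weighted model. For the 2 pairs with calls the numbers were 1014 (7.68%) against the nonleukemic double mutants and 1645 (12.5%) against the Tet2 knockouts. In the 4 pairs without calls limma called none, and the smallest adjusted p of the weighted model were 0.299, 0.9999, 0.9995 and 0.770.

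Both calls lay 2 bases apart on chromosome 17, in one of the most deeply read places among these CpGs. At chr17:39982727-39982728, F minus R was -52.8, -51.0 and -46.3 points in the leukemic double mutants, -36.2, -35.9 and -30.6 in the nonleukemic double mutants, -37.5, -40.0 and -31.1 in the Tet2 knockouts and -42.1, -40.4 and -38.0 in Nras G12D. R was thus higher in every library, and the 3 leukemic libraries lay beyond the 9 others. The leukemic mean F minus R was -50.0 ± 3.36 points against -34.2 ± 3.18 in the nonleukemic double mutants (SD, n = 3 each), a difference of -15.8 points (adjusted p 0.00278 in the weighted model), and -13.9 points against the Tet2 knockouts (adjusted p 0.00501). This CpG held 7006 to 24967 reads on F and 1827 to 6529 on R per library, which ranks 62 among the 74315 by total reads. Whether the sequence there is repeated in the genome was not checked, so the reads may come from more than 1 place. Other models did not make these calls: limma on F minus R in points gave adjusted p of 0.506 and 0.794, and the weighted model with weights reduced for the extra spread of each library gave 0.700 and 0.814. limma called 4 and 2 other CpGs in these pairs of groups, none of them called by the weighted model.

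Lower methylation in the leukemic double mutants was found on both strands. Over 80%, the level on F was 89.4 ± 1.87% in the leukemic and 94.6 ± 0.145% in the nonleukemic double mutants, and the level on R was 89.6 ± 2.04% and 94.6 ± 0.178% in the same groups (SD, n = 3 each), differences of -5.24 points on F and -5.05 points on R. At 20 to 80% the differences were -8.98 points on F and -9.27 points on R. Against the Tet2 knockouts they were -11.5 on F and -11.2 on R at 20 to 80%, and -5.69 and -5.65 over 80%, and against Nras G12D they were -6.50 and -6.37 at 20 to 80%, and -4.63 and -4.44 over 80%. The leukemic libraries did not overlap any other group on either strand in these classes, with p = 0.1 in each exact permutation test and adjusted p of 0.164 on F and 0.15 on R. These comparisons share the leukemic libraries. The strands of a group differed by at most 0.320 points in any of these means.

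CpG by CpG, the differences between leukemic and nonleukemic double mutants also fell on both strands more often than they split. At 20 to 80%, 977 CpGs (26.9%) were at least 10 points lower on both strands, 120 (3.30%) at least 10 points higher on both, and 240 (6.60%) at least 10 points lower on one strand and 10 points higher on the other. Over 80% the numbers were 926 (8.31%) lower on both, 20 (0.179%) higher on both and 102 (0.915%) split. Across CpGs the difference on F correlated with that on R with r = 0.441 at 20 to 80% and 0.220 over 80%. Between the nonleukemic double mutants and Tet2 knockouts, 309 CpGs of 20 to 80% (8.50%) were lower on both strands. Another 142 (3.91%) were higher on both and 318 (8.75%) split, with r = 0.0803. For nonleukemic minus Nras G12D, 9.27% of this class were higher on both strands, 2.78% lower on both and 4.81% split (r = 0.243). For Tet2 knockout minus Nras G12D these shares were 14.5, 3.41 and 8.97% (r = 0.142). Differences on both strands more often than split were thus not particular to the leukemic libraries.

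**Figure D5:**
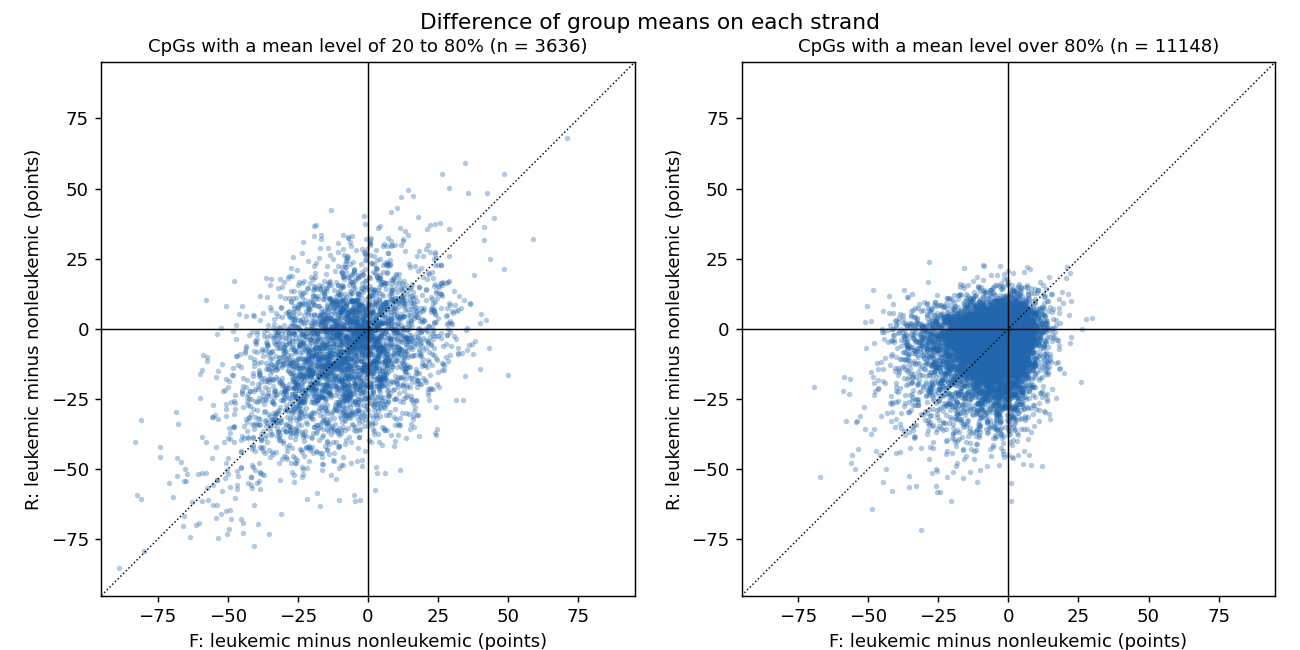
Leukemic minus nonleukemic group mean of methylation on F (x axis) and on R (y axis), in percentage points, for CpGs of 20 to 80% (left, n = 3636) and over 80% (right, n = 11148); the dotted line marks equal differences. The cloud lies towards the lower left in both panels, where 977 and 926 CpGs are at least 10 points lower on both strands, and is widely scattered about the line.

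For picks lower in the leukemic double mutants, the median difference on the opposite strand had the same direction. CpGs were picked where one strand was at least 25 points lower in the leukemic than in the nonleukemic double mutants, and the other strand was then read. Of 2444 such picks, over 2053 CpGs, the picked strand was lower by a median of 32.4 points, and the difference on the other strand had a median of -15.2 points. At 391 of these CpGs both strands passed 25 points, so each entered once per strand and its other strand was itself picked. The other strand was at least 10 points lower in 60.9% of picks (95% Wilson interval 59.0 to 62.8%, which treats picks as independent) and at least 10 points higher in 3.19%. Against the Tet2 knockouts the median on the other strand was -13.4 points over 3542 picks, with 55.8% past 10 points, and against Nras G12D it was -11.5 points over 2135 picks, with 53.5% past 10 points. Without leukemic replicate 2 these shares were 50.0, 47.2 and 44.3%. Both strands had passed 25 points at 544 CpGs against the Tet2 knockouts and at 276 against Nras G12D. The share of all CpGs at least 10 points lower on a strand was not counted for comparison.

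The same reading was made for picks in the other direction and for other pairs of groups. Of 393 picks at least 25 points higher in the leukemic than in the nonleukemic double mutants, the other strand had a median difference of 0.817 points, and it was at least 10 points higher in 24.7% and at least 10 points lower in 9.16%. Of 1161 picks higher in the Tet2 knockouts than in Nras G12D the median on the other strand was 2.50 points, with 32.4% past 10 points, and of 331 picks higher in the nonleukemic double mutants than in Nras G12D it was 10.6 points, with 52.0% past 10 points. A pick on one strand takes the strands and libraries with the largest deviations, so the smaller value on the other strand includes the return of such deviations towards their mean. Without the 5 libraries with few equivalent reads, the shares of mirrored lower picks in the 3 leukemic comparisons were 64.2, 65.6 and 60.3%.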

How the data were processed

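The authors digested DNA with MspI, repaired the ends, selected fragments of 150 to 400 bp, converted them with bisulfite and sequenced 50 bp single-end reads, per the labels' protocols. Bismark (version not given in the sources used here) and mouse build mm9 (NCBIM37) come from the submitters' processing notes. The deposited tables give per cytosine and strand the coverage as a count of reads (at least 10) and the percent of C and of T; methylated and unmethylated reads were computed by rounding, leaving out other bases. Per-library measures were compared with two-sided exact permutation tests and Benjamini-Hochberg adjustment over 18 comparisons. The CpG tests used weighted log odds ratios in 1 linear model over 12 libraries (8 residual degrees of freedom), with limma 3.58.1's squeezeVar (R 4.3.3) and a dispersion floored at 1, in Python 3.11.15, NumPy 2.4.6, SciPy 1.17.1 and pandas 2.3.3. The test was tested on simulated data, where the weights made too many calls in libraries with extra spread, so limma on points and reduced weights stand beside it. Named CpGs were, among those called with 1 sign in all 12 libraries, the 4 largest differences each way, and per pair of groups the 2 largest each way without overlap, at most 1 per 1000 bp; chromosome 18 was counted but not named. The members, tests and lists were chosen with earlier results of these data known. Equal replicate numbers showed no sign of pairing in the strand differences, which cannot exclude it.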

Additional observations from a re-analysis of the deposited data

Results flagged for a closer look

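At 2 CpGs on chromosome 17 (mm9), the weighted model alone called a difference between groups in the strand difference, in the test of the strand-by-group term itself. At position 39982727, F minus R averaged -50.0 points in the leukemic and -34.2 in the nonleukemic double mutants, a difference of -15.8 points. At position 39982729 it averaged -61.2 points in the leukemic and -46.6 in the nonleukemic double mutants, a difference of -14.6 points (adjusted p 0.0138 in the weighted model). Against the Tet2 knockouts, whose means were -36.2 and -47.5 points, the differences were -13.9 at 39982727 and -13.7 at 39982729 (adjusted p 0.00501 and 0.00508). The 3 leukemic libraries did not overlap the 3 libraries of the other group in any of the 4 comparisons. These CpGs rank 62 and 63 among the 74315 by total reads, with 238976 and 238044. They lie 2 bases apart and are not independent of each other. Whether the sequence there is repeated in the genome was not checked. limma on F minus R in points did not call them, with adjusted p of 0.506 to 0.818. The weighted model with weights reduced for the extra spread of each library did not call them either, with adjusted p of 0.700 to 0.814. In the weighted fit on the 6 libraries of each pair they were not called, and against Nras G12D no CpG was called.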

How the results depend on the processing

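Results kept their direction in most alternatives: 188 of 198 differences of the mean absolute strand difference, 187 of 198 of the SD beyond counting error and 189 of 198 of the equivalent reads, apart from leaving out single libraries. The leukemic mean absolute difference stayed above that of every other group over 80%, and above that of the nonleukemic double mutants in all 3 classes, in every alternative run. Small differences turned. The leukemic minus Tet2 knockout mean absolute difference under 20% was 0.186 points at junction CpGs (SD beyond counting error 0.219), and at 20 to 80% it was -0.464 points at interior CpGs (SD -0.964; -0.0313 with classes set without the leukemic libraries). Tet2 knockout minus Nras G12D over 80% was 0.0764 points at interior CpGs and 0.504 points without the 3 libraries that hold Y-chromosome reads, where leukemic minus Tet2 knockout equivalent reads were 1.97 under 20%, 0.101 at 20 to 80% and 0.484 over 80%.

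Without the 5 libraries with few equivalent reads, an alternative chosen after seeing the data, more values turned. For the mean absolute difference these were leukemic minus Tet2 knockout (0.444), nonleukemic minus Tet2 knockout (0.196) and nonleukemic minus Nras G12D (0.213) under 20%, nonleukemic minus Tet2 knockout (0.994) and Tet2 knockout minus Nras G12D (-1.58) at 20 to 80%, and nonleukemic minus Tet2 knockout (0.857) over 80%. For the SD beyond counting error they were leukemic minus Tet2 knockout (1.05), nonleukemic minus Tet2 knockout (0.413), nonleukemic minus Nras G12D (0.258) and Tet2 knockout minus Nras G12D (-0.155) under 20%, nonleukemic minus Tet2 knockout (0.397) and Tet2 knockout minus Nras G12D (-1.03) at 20 to 80%, and nonleukemic minus Tet2 knockout (1.30) and Tet2 knockout minus Nras G12D (-1.94) over 80%. For equivalent reads they were nonleukemic minus Tet2 knockout (-3.06, -0.208 and -4.09 in the classes from low to high) and Tet2 knockout minus Nras G12D (3.70, 0.544 and 4.67). This leaves 1 leukemic and 1 Tet2 knockout library, and the causes were not tested.

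Leaving out 1 library at a time turned some differences that were small to begin with. The mean absolute difference of leukemic minus Tet2 knockout ranged from -0.378 to 0.280 points under 20% and from -2.57 to 5.79 at 20 to 80%, nonleukemic minus Nras G12D from -0.200 to 0.213 under 20%, and Tet2 knockout minus Nras G12D from -0.855 to 0.472 over 80%. For the SD beyond counting error, leukemic minus Tet2 knockout ranged from -2.28 to 1.55 under 20% and from -3.51 to 6.45 at 20 to 80%, nonleukemic minus Nras G12D from -1.28 to 0.258 under 20%, and Tet2 knockout minus Nras G12D from -0.413 to 4.82 over 80%. For equivalent reads, leukemic minus Tet2 knockout ranged from -6.17 to 3.54 under 20%, -1.90 to 1.02 at 20 to 80% and -6.24 to 1.62 over 80%, and Tet2 knockout minus Nras G12D from -6.90 to 0.964 over 80%.

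The 314 CpGs with a strand difference over all libraries numbered 272 to 331 without any 1 library. They numbered 30 with at least 50 reads per strand, where 21442 CpGs remain, 3 at junction CpGs, 19 at interior CpGs, 188 with limma and 1354 with Fisher's exact test on pooled reads, which takes reads as independent. Pooled reads called 5017 CpGs for leukemic minus nonleukemic, 5936 for leukemic minus Tet2 knockout, 5453 for leukemic minus Nras G12D, 3637 for nonleukemic minus Tet2 knockout, 2472 for nonleukemic minus Nras G12D and 4397 for Tet2 knockout minus Nras G12D. The 2 calls each between leukemic and nonleukemic and between leukemic and Tet2 knockout libraries became 0 and 0 without the top 0.1% of coverage, which removes both CpGs themselves, in the fit on the 6 libraries of the pair, at 25 points and with reduced weights, 0 and 1 at junction CpGs, 1 and 1 at interior CpGs and with the 5 libraries left out, 1 and 0 without the 3 libraries that hold Y-chromosome reads, and 4 and 2 with limma. They ranged from 1 to 2 and from 1 to 21 without single libraries, with 1 and 1 without leukemic replicate 1, 21 for leukemic minus Tet2 knockout without leukemic replicate 2, 7 without Tet2 knockout replicate 1, and 1 for leukemic minus nonleukemic without nonleukemic replicate 2 or 3.

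With the replicate number as a block the count over all libraries was 305 and no count between groups changed. Same-numbered libraries of different groups correlated with r of -0.0353 to 0.0326 in their deviations, and differently numbered ones with -0.0357 to 0.0365. The strand differences thus showed no sign of pairing by number. A pairing that leaves no trace in strand differences could not be seen this way.

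The share of picks lower in the leukemic libraries whose other strand was at least 10 points lower became 81.2, 71.7 and 75.0% against the nonleukemic double mutants, Tet2 knockouts and Nras G12D when picked at 40 points, and 64.2, 65.6 and 60.3% without the 5 libraries. Against the Tet2 knockouts it was 47.4% at junction CpGs and 53.2% at interior CpGs, and against Nras G12D 50.5% at junction CpGs. Without single libraries it ranged from 50.0 to 62.5%, 47.2 to 58.8% and 44.3 to 56.0% in the 3 comparisons. With 3 libraries a group no permutation p could pass 0.05, and coverage counts PCR copies, so strand differences of a few points at single CpGs cannot be told from sampling of few molecules.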

Other observations

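Mitochondrial CpGs gave 0.251 to 1.13% of methylated reads on F and 0.188 to 1.20% on R, with F the higher strand in some libraries and R in others. Reads with another base than C or T made up 0.0312 to 0.0582% of reads on F and 0.0191 to 0.0373% on R at the CpGs read on both strands, and the share on F was the higher one in all 12 libraries.

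Called CpGs were spread over all autosomes. Chromosome 17 held 37 of 827 tested CpGs (4.47%), chromosome 7 held 40 of 1107 (3.61%), and chromosome 11 held 14 of 1222 (1.15%).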
